A study of Mus musculus with 23 samples.

Results

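The Fc receptor genes described here are Fcgr1, Fcgr2b, Fcgr3, Fcgr4, Fcer1g, Fcgrt and Fcrla, 7 of the 47729 genes counted and taken by their symbols. Their transcripts were followed in 4 dendritic cell (DC) populations sorted from the spleen of Balb/C wild type mice that were untreated or had received TLI, a treatment that the labels do not spell out. The labels define DC1a as CD8hi CD172-, DC1b as CD8Int CD172+, DC2 as CD8lo CD172hi and DC3 as CD8- CD172lo. The untreated mice gave 2 pools and the TLI mice gave 4, each pool was divided into the populations, and with 1 TLI DC2 library (pool 2) not among those used here there were 23 libraries. All mice were of this 1 strain and no allele was altered, and the age of the pooled animals was not given. For DC1a, DC1b and DC2 of untreated mice, the paper shows a gate of CD11c+ MHCII+ cells after removal of lineage-positive cells. It does not describe the gate of DC3 or of TLI mice. Untreated libraries and TLI pools 1 and 2 were labelled batch 1, and TLI pools 3 and 4 batch 2.

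Fc receptors bind the constant part of antibodies and so tie antibody to the cells that take up antigen. The activating IgG receptors of the mouse, encoded by Fcgr1, Fcgr3 and Fcgr4, pair with the signalling chain encoded by Fcer1g, and the inhibitory IgG receptor, encoded by Fcgr2b, recruits phosphatases. In dendritic cells the balance of activating and inhibitory receptors is known to set how antigen in immune complexes is taken up and presented. Fcgrt encodes the neonatal Fc receptor, an intracellular receptor that pairs with beta-2 microglobulin and rescues IgG from breakdown, and Fcrla encodes an Fc receptor-like protein that stays inside the cell and is best known from B cells.

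Of the 7 genes, 5 lie on chromosome 1 within 316.79 kb in the order Fcrla, Fcgr2b, Fcgr4, Fcgr3 and Fcer1g (GRCm38; GENCODE M21). The stretch holds 12 protein-coding genes in all. Fcrla is at chr1:170917576-170927583, Fcgr2b at chr1:170958617-170976547, Fcgr4 at chr1:171018920-171029761, Fcgr3 at chr1:171051174-171064935 and Fcer1g at chr1:171229572-171234365. Fcgr4 is read from the plus strand and the other members from the minus strand. Fcgr1 is on chromosome 3 (chr3:96282909-96293969) and Fcgrt on chromosome 7 (chr7:45092990-45103851).

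The difference between activating and inhibitory signalling can be read in the coding sequence. The Fcer1g tail holds a pair of tyrosine codons at activating-motif spacing, and the Fcgr2b tail holds a single tyrosine codon in an inhibitory motif. The search covered only the tail, the part after the last hydrophobic stretch of the coded protein. There an activating motif was found only in Fcer1g and an inhibitory motif only in Fcgr2b. Fcrla had no such stretch and was not searched. Each stretch below joins neighbouring exons of the reference transcript on the minus strand, and the capitals mark the motif tyrosine codons, in Fcer1g at chr1:171229874-171230087 and in Fcgr2b at chr1:170961056-170961198.
Fcer1g: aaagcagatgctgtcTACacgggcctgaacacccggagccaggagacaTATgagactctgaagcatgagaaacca
Fcgr2b: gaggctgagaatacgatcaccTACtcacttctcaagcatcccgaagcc

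Fcgr2b and Fcgr3 encode the most alike pair, with 70.9% of 251 aligned residues identical, against 39.7% to 49.2% for the other pairs compared. The likeness matters for the counts. The longest run of identical bases shared by their reference transcripts has 129 bases and lies in coding exons of both genes. It is in Fcgr2b between chr1:170966674-170968081 and in Fcgr3 between chr1:171054167-171057792. The run is shown here because a single read that falls wholly inside it fits both genes. The reads were paired-end, and the paper describes counts of reads mapped uniquely to known mRNAs. The windows below cover single reads, not pairs.
Fcgr2b and Fcgr3 shared run: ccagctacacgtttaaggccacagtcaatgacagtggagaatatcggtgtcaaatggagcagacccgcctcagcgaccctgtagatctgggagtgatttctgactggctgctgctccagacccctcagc
Of the 1627 windows of 76 bases in Fcgr3 transcripts, 92 (5.65%) also occurred in Fcgr2b, more than the run shown can hold. Of the 3794 windows in Fcgr2b, 311 (8.2%) also occurred in another gene, among them Fcgr3 and the antisense gene Gm38204 whose exons overlap Fcgr2b on the opposite strand. The other 5 members shared none. The use of strand in counting was not given in the sources used here. Fcgr2b had the largest share of windows found in other genes among the 7, and the effect on its values was not tested.

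Library totals ran from 19256447 to 36997890 counts, and values are given as CPM, each gene's count scaled in the usual way to the total of its library. A limit of 3 counts, used as the floor for fold changes against groups without counts, equals 0.0811 to 0.156 CPM across libraries. Such limits cover counting error only. Values from the test are differences on the log2 scale (± SE) from a fit over all 23 libraries and 19597 genes, and a gene was called at an adjusted p under 0.05 (edgeR quasi-likelihood test, Benjamini-Hochberg over all genes tested). Libraries of 1 group were separate pools of mice. In bulk libraries of sorted cells, fewer cells with a transcript and less transcript per cell cannot be told apart.

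Before the receptor values, the labels were set against the markers of each gate. Sirpa, which encodes CD172a, was at 13.7 to 146 CPM in 4 of the 6 DC1b libraries but at 5.1 and 6.55 CPM in TLI DC1b pools 3 and 4, and it was at 9.22 CPM in TLI DC2 pool 3 against 36.7 to 309 CPM in the other 4 DC2 libraries. Cd8a was at 0.327 CPM in TLI DC1b pool 4, which goes against that gate, and at 79 to 390 CPM in the other 5. All fits were repeated without these 3 libraries of low Sirpa, a set chosen after seeing the data. Of the 28 member calls 22 were kept and 6 were lost, and the lost calls are named with their values below. The DC3 libraries, gated as CD8-, held cDC1 marker sums of 2052 to 3306 CPM over 8 genes, close to those of DC1a (2683 to 4860 CPM). Sums of the 6 general DC markers ran from 10575 to 101933 CPM and those of the 6 cDC2 markers from 9.38 CPM in DC1a to 769 CPM in DC2. The 5 T cell markers summed to at most 294 CPM and the 4 mast cell and basophil markers to at most 1442 CPM, the latter in TLI DC1b pool 3.

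Fcer1g was the highest of the 7 members per kilobase of transcript in each population. Its mean level per kilobase was 143 in TLI DC1a, 3271 in TLI DC1b, 4546 in TLI DC2 and 1257 in TLI DC3 (CPM per kb). In CPM, the untreated libraries read 118 and 100.1 in DC1a, 567 and 782 in DC3, 1171 and 1624 in DC1b and 2056 and 1653 in DC2. The TLI libraries read 71.3, 54.7, 133 and 128 in DC1a, 948, 433, 960 and 1070.1 in DC3, 2256, 1337, 2644 and 2639 in DC1b and 2412, 3248 and 3592 in DC2 (pools 1, 3 and 4). DC1a was thus the lowest population in every pool, DC3 lay between, DC1b lay just under DC2 in untreated mice and overlapped with it in TLI mice.

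**Figure D1:**
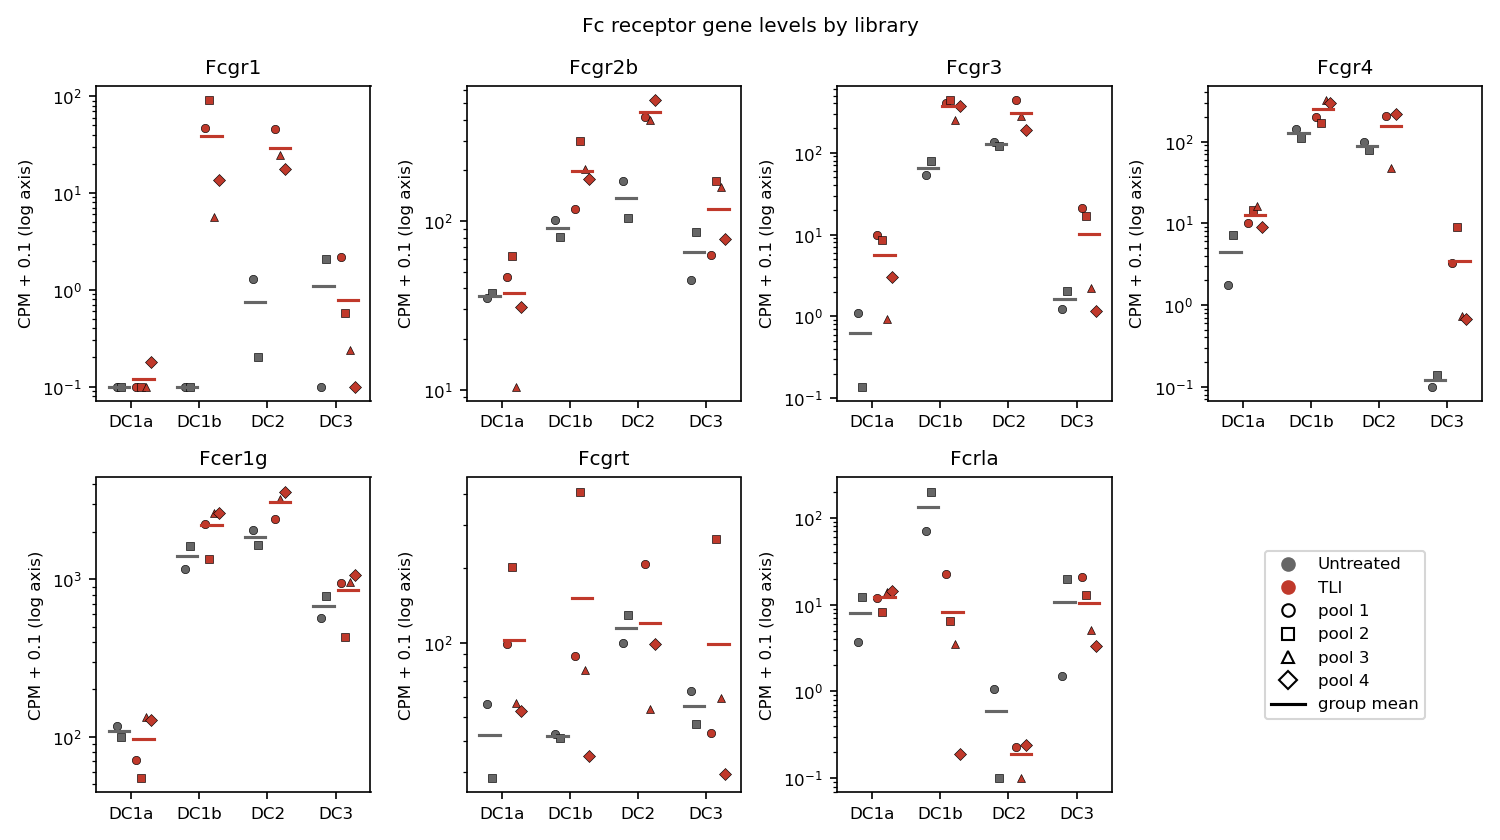
Level of each of the 7 Fc receptor genes, as CPM + 0.1 on a log axis with its own range in each panel, by population, with 1 point for each of the 23 libraries (grey untreated, red TLI, shape for the pool) and a line at the group mean. Fcer1g, Fcgr3 and Fcgr4 sit high in DC1b and DC2 and low in DC1a, Fcgr3 and Fcgr4 are also low in DC3, and Fcgr1 reaches 5.48 CPM or more only in TLI DC1b and DC2.

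By the test Fcer1g was lower in DC1a than in each other population of both treatments. In untreated mice it was higher than in DC1a by 3.4 ± 0.40 in DC1b (adjusted p = 0.000356) and by 3.89 ± 0.40 in DC2 (adjusted p = 5.91e-05), and the DC3 difference was 2.37 ± 0.38 (adjusted p = 0.0116). In TLI mice the differences from DC1a were 4.49 ± 0.29 in DC1b (adjusted p = 1.34e-07), 4.63 ± 0.30 in DC2 (adjusted p = 1.03e-07) and 2.97 ± 0.28 in DC3 (adjusted p = 1.73e-05). TLI DC3 was lower than TLI DC1b by 2.85-fold (adjusted p = 0.00593) and lower than TLI DC2 by 3.15-fold (adjusted p = 0.00351). The untreated DC3 against DC2 difference of -1.51 ± 0.37 was not called (adjusted p = 0.0673) and was called with the pool as a block (adjusted p = 0.0173), without a filter on low counts (adjusted p = 0.0151), by DESeq2 (adjusted p = 0.00465) or without TLI DC3 pool 1 (adjusted p = 0.0297). The untreated DC3 against DC1b difference of -1.02 ± 0.36 was not called (adjusted p = 0.423). The DC2 against DC1b difference was not called in untreated mice (adjusted p = 0.721) or TLI mice (adjusted p = 0.913). The untreated DC3 against DC1a call was lost without untreated DC1a pool 1 (adjusted p = 0.189), DC1a pool 2 (adjusted p = 0.205) or DC3 pool 2 (adjusted p = 0.132). The TLI DC3 against DC1b call was lost without the libraries of low Sirpa (adjusted p = 0.0793) and without a batch term (adjusted p = 0.062).

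Fcgr3, the low-affinity activating IgG receptor, split the populations more sharply than its signalling chain. Untreated libraries read 1.01 and 0.0386 CPM in DC1a (29 and 1 counts), 1.14 and 1.92 CPM in DC3, 52.8 and 78.7 CPM in DC1b and 134 and 119.96 CPM in DC2. TLI libraries read 9.81, 8.46, 0.838 and 2.93 CPM in DC1a and 20.8, 16.6, 2.11 and 1.05 CPM in DC3. The TLI libraries of the other populations read 410.02, 436, 251 and 375 CPM in DC1b and 437, 281 and 192 CPM in DC2. DC1a and DC3 did not overlap with DC1b or DC2 in either treatment, and the TLI ranges of DC1a and DC3 overlapped, as did those of DC1b and DC2.

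Fcgr3 was called in 8 of the 17 comparisons, as many as Fcer1g. It was 101-fold higher in untreated DC1b than DC1a (6.66 ± 1.19, adjusted p = 0.01) and 206-fold higher in untreated DC2 than DC1a (7.69 ± 1.24, adjusted p = 0.0028). In TLI mice it was 92-fold higher in DC1b than DC1a (6.52 ± 0.83, adjusted p = 0.000201) and 72.4-fold higher in DC2 than DC1a (6.18 ± 0.84, adjusted p = 0.00027). DC3 was lower than TLI DC1b by 69.2-fold (adjusted p = 0.000731), lower than TLI DC2 by 54.4-fold (adjusted p = 0.00123) and lower than untreated DC2 by 85.4-fold (adjusted p = 0.0115). The untreated DC3 against DC1b difference of -5.39 ± 1.11 passed narrowly (adjusted p = 0.0446) and did not pass with the pool as a block (adjusted p = 0.105). That call was also lost in 15 fits that left out 1 library (adjusted p from 0.0508 to 0.401), each of the 6 untreated libraries of DC1b, DC2 and DC3, TLI DC1a pools 1, 2 and 4, TLI DC1b pools 1 and 3, TLI DC2 pools 3 and 4, and TLI DC3 pools 2 and 3. The untreated DC1b against DC1a call was lost without untreated DC1a pool 2, the library with 1 count (53.3-fold, adjusted p = 0.124), where the DC2 against DC1a fold fell to 108 (adjusted p = 0.0329). With that library alone in DC1a, that is without pool 1, the fitted differences rose to 10.3 and 11.32 and rest on its 1 count. The untreated DC3 against DC2 call was lost without untreated DC3 pool 1 (adjusted p = 0.169) or pool 2 (adjusted p = 0.147).

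Fcgr4, the activating receptor for IgG2 subclasses that is well known from monocytes and neutrophils, had the same high and low populations. It read 1.64 and 7.14 CPM in untreated DC1a, 143 and 111 CPM in DC1b and 99.1 and 78.5 CPM in DC2, and in untreated DC3 it had 0 and 1 counts. In TLI mice it read 10.1, 14.6, 16 and 8.85 CPM in DC1a, 3.17, 8.86, 0.633 and 0.569 CPM in DC3, 201.2, 170, 321 and 300.2 CPM in DC1b, and 207, 47.6 and 217 CPM in DC2. TLI DC2 pool 3, at 47.6 CPM, was under each of the untreated DC2 libraries and is the library of low Sirpa.

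Against untreated DC3, which was at the floor, Fcgr4 was at least 930-fold higher in untreated DC1b (adjusted p = 0.00351) and at least 650-fold higher in untreated DC2 (adjusted p = 0.00142). In TLI mice it was 106-fold lower in DC3 than DC1b (-6.73 ± 0.91, adjusted p = 0.000681) and 55.5-fold lower in DC3 than DC2 (-5.79 ± 0.88, adjusted p = 0.00164), and without TLI DC3 pool 2, the highest of that group, these folds were 197 and 106. TLI DC1b exceeded TLI DC1a by 19.9-fold (4.31 ± 0.78, adjusted p = 0.0064) and TLI DC2 exceeded it by 10.4-fold (3.37 ± 0.77, adjusted p = 0.0211). The DC2 against DC1a call was not kept with the pool as a block (adjusted p = 0.05004), without TLI DC1a pool 1 (adjusted p = 0.0707), pool 2 (adjusted p = 0.0631) or pool 4 (adjusted p = 0.0734), or without TLI DC2 pool 4 (6.73-fold, adjusted p = 0.0993). The TLI DC1b against DC1a call was lost without the libraries of low Sirpa (3.11, adjusted p = 0.254). The untreated DC3 against DC1b call was lost without untreated DC3 pool 1 (adjusted p = 0.0677) or pool 2 (adjusted p = 0.0995). In untreated mice the DC1b and DC2 levels were 23.5-fold and 17.5-fold those of DC1a without passing the test (adjusted p = 0.0738 and 0.0665), and both passed without TLI DC3 pool 2 (adjusted p = 0.0356 and 0.0347) and by DESeq2 (adjusted p = 0.000116 and 0.00052), the DC2 difference also without the libraries of low Sirpa (adjusted p = 0.0497). Untreated DC3 was at least 32.1-fold lower than DC1a (adjusted p = 0.0506), which passed without TLI DC2 pool 3 (adjusted p = 0.0461) or TLI DC3 pool 2 (adjusted p = 0.0259), pool 3 (adjusted p = 0.0355) or pool 4 (adjusted p = 0.0387), without the libraries of low Sirpa (adjusted p = 0.0471) and by DESeq2 (adjusted p = 0.00032). This bound was 52.3-fold without untreated DC1a pool 1 and 12-fold without pool 2.

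Fcgr1, the high-affinity IgG receptor used as a marker of macrophages and inflammatory cells, was the member with the most uneven detection. Its counts were 0 in both untreated DC1a libraries, 0 in both untreated DC1b libraries and 0 in 3 of the 4 TLI DC1a libraries. Untreated DC2 read 1.18 and 0.104 CPM and untreated DC3 read 0 and 2.0 CPM. TLI DC1b read 46.3, 90.4, 5.48 and 13.4 CPM and TLI DC2 read 46, 24.3 and 17.4 CPM, so every library of these populations was above every untreated library. TLI DC3 stayed between 0 and 2.08 CPM.

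Measured against the floor, Fcgr1 was at least 353-fold higher in TLI DC1b than TLI DC1a (adjusted p = 0.0274) and at least 265-fold higher in TLI DC2 than TLI DC1a (adjusted p = 0.0149). Without TLI DC1b pool 2, the library with the most Fcgr1, the DC1b bound was 197-fold. The DC1b call was not kept with the pool as a block (adjusted p = 0.0671), without TLI DC1a pool 1 (adjusted p = 0.101), pool 2 (adjusted p = 0.0989) or pool 3 (adjusted p = 0.104), without TLI DC1b pool 4 (adjusted p = 0.059), or without the libraries of low Sirpa (adjusted p = 0.161). The DC2 call was lost without TLI DC1a pool 1 (adjusted p = 0.0509) or pool 3 (adjusted p = 0.057). TLI DC3 lay below TLI DC1b by 70.2-fold and below TLI DC2 by 83-fold without passing the edgeR test (adjusted p = 0.124 and 0.118). Both differences were called by DESeq2 (adjusted p = 0.0007 and 0.00149) and by edgeR without a filter on low counts (adjusted p = 0.0188 and 0.0216).

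The 250 bases before the Fcgr1 start site (RefSeq, GRCm38.p6, minus strand, chr3:96293970-96294219) are shown because Fcgr1 had no count in untreated DC1b and was detected in every TLI DC1b library. The capitals mark a match to TTCNNNGAA, the STAT-type letters searched on both strands, whose first base lies 109 bases before the start.
Fcgr1 promoter: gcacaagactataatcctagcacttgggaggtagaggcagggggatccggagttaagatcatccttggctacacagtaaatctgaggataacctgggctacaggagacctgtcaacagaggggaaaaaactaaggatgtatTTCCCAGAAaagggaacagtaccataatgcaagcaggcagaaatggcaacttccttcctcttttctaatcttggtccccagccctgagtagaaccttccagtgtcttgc
The search covered 300 bases of each promoter, the 250 shown and the 50 that follow the start. In windows of that length these letters occurred in 2726 of 32851 promoters (8.3%) and, among the 7 members, only in that of Fcgr1. The ETS-type letters GAGGAA occurred in 9289 promoters (28.3%) and in those of Fcgr1, Fcgr3, Fcgr4 and Fcrla. A match is a description of the letters in the window.

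Fcgr2b, the inhibitory receptor, was detected in all 23 libraries and its population means spanned a narrower range than those of the activating receptors. Untreated libraries read 34.7 and 37.2 CPM in DC1a, 44.7 and 85.7 CPM in DC3, 101 and 80.4 CPM in DC1b and 172 and 104 CPM in DC2. TLI libraries read 46.4, 61.8, 10.3 and 31 CPM in DC1a, 63.1, 174, 158 and 78.7 CPM in DC3, 117, 299, 203 and 177 CPM in DC1b and 417, 397 and 522 CPM in DC2. TLI DC2 stood above every other library, while DC3 and DC1b overlapped in both treatments.

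By the test, Fcgr2b was 5.31-fold higher in TLI DC1b than DC1a (2.41 ± 0.45, adjusted p = 0.00755) and 10.8-fold higher in TLI DC2 than DC1a (3.43 ± 0.49, adjusted p = 0.00046). It was 3.78-fold lower in TLI DC3 than DC2 (-1.92 ± 0.46, adjusted p = 0.0478). This last call lay at the threshold: it was lost in 21 of the 23 fits that left out 1 library, with adjusted p from 0.0512 to 0.151, and was kept only without TLI DC1a pool 3 or TLI DC1b pool 1. It was also lost without the libraries of low Sirpa (adjusted p = 0.118), without a batch term (adjusted p = 0.087), in a fit of the TLI libraries alone (adjusted p = 0.1002) and with RLE size factors (adjusted p = 0.0502). The DC1b against DC1a call was lost without the libraries of low Sirpa (2.22, adjusted p = 0.141). Between untreated populations edgeR called no difference in Fcgr2b and 1 had an unadjusted p under 0.05. The largest, DC2 against DC1a at 3.34-fold (adjusted p = 0.198), was called by DESeq2 (adjusted p = 0.0383).

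Fcgrt was called by edgeR in 0 of the 17 comparisons and had an unadjusted p under 0.05 in 4. DESeq2 called it in 2, both between treatments, in DC1a (adjusted p = 0.032) and DC1b (adjusted p = 0.00213). Its untreated values were 56.3 and 28.2 CPM in DC1a, 42.8 and 41.1 CPM in DC1b, 99.9 and 129 CPM in DC2 and 63.5 and 46.6 CPM in DC3. In TLI mice the range was 52.8 to 201.4 CPM in DC1a, 34.5 to 407 CPM in DC1b, 53.7 to 208 CPM in DC2 and 29.4 to 262 CPM in DC3. TLI pool 2 gave the highest value in each of its 3 populations, at 201.4, 407 and 262 CPM. In untreated mice both DC2 libraries were above all libraries of the other populations. Whether Fcgrt varied more with the pool or with the gate was not tested.

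Fcrla had a pattern of its own. It was highest in untreated DC1b, at 70.5 and 199.96 CPM, and read 22.4, 6.45, 3.46 and 0.0893 CPM in TLI DC1b. It was near or at 0 in DC2, with 0.977 and 0 CPM in untreated and 0.128, 0 and 0.138 CPM in TLI libraries. DC1a read 3.63 and 12.1 CPM untreated and 8.16 to 14.3 CPM after TLI, and DC3 read 1.41 and 19.6 CPM untreated and 3.22 to 20.6 CPM after TLI. The 1 call was the lower level in TLI DC2 than TLI DC1a (-7.49 ± 1.77, adjusted p = 0.0255), which rests on 3, 0 and 4 counts in DC2. It was not kept with the pool as a block (adjusted p = 0.05004), without the libraries of low Sirpa (adjusted p = 0.0514), without TLI DC1a pool 3 (adjusted p = 0.0553) or pool 4 (adjusted p = 0.0546), or without TLI DC2 pool 1 (adjusted p = 0.104), pool 3 (adjusted p = 0.091) or pool 4 (-8.7, adjusted p = 0.0535). The untreated DC2 against DC1b difference was not called (adjusted p = 0.172) and passed without a filter on low counts (adjusted p = 0.0437). TLI DC3 lay above TLI DC2 by 6.44 ± 1.71, which edgeR did not call (adjusted p = 0.0869). It was called by DESeq2 (adjusted p = 1.6e-05), without a filter on low counts (adjusted p = 0.0126) and without TLI DC1b pool 4 (adjusted p = 0.0434).

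All members called between DC1b or DC2 and DC1a or DC3 were higher in DC1b or DC2, with the exception of Fcrla, and Fcer1g was the 1 member called between DC3 and DC1a. In untreated mice 2 of 7 members were called between DC1b and DC1a, against 0.837% of all genes, 2 between DC2 and DC1a (1.91% of all genes), 1 between DC3 and DC1a (0.184%), 2 between DC3 and DC1b (0.393%) and 2 between DC3 and DC2 (0.837%). In TLI mice the counts were 5 between DC1b and DC1a (1.42% of all genes), 6 between DC2 and DC1a (3.4%), 1 between DC3 and DC1a (0.75%), 3 between DC3 and DC1b (1.11%) and 4 between DC3 and DC2 (1.37%). The median difference over the members in TLI mice was 4.31 for DC1b against DC1a and 3.43 for DC2 against DC1a, beside 0.02 over all genes in both. With few calls over all genes, the shares of members are based on at most 7 genes that lie partly side by side on 1 chromosome.

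No member was called between DC2 and DC1b by edgeR in untreated mice, where 0.398% of all genes were called. Of the 7, 3 had an unadjusted p under 0.05 and DESeq2 called 1, Fcrla (adjusted p = 1.21e-05), beside 1082 of all 19597 genes. In TLI mice DC2 against DC1b also gave 0 members (0.214% of all genes), with 2 at an unadjusted p under 0.05. DESeq2 called 1 there, Fcrla (adjusted p = 0.000125), beside 975 of all 19597 genes. These counts do not show that the Fc receptors of DC1b and DC2 were alike.

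The activating Fcgr3 and the inhibitory Fcgr2b were then compared within each library, as the ratio of their levels per length of transcript. In TLI mice the geometric mean ratio was 0.14 in DC1a, 2.19 in DC1b, 0.743 in DC2 and 0.0559 in DC3. Every TLI DC1b library had more Fcgr3 than Fcgr2b by this measure, from 1.42 to 4.01, whereas each TLI DC1a library was between 0.0932 and 0.243 and each TLI DC3 library between 0.0153 and 0.379. TLI DC2 libraries lay at 1.2, 0.811 and 0.422, under those of DC1b. Untreated libraries read 0.0334 and 0.00119 in DC1a, 0.60 and 1.12 in DC1b, 0.895 and 1.32 in DC2 and 0.0292 and 0.0257 in DC3.

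**Figure D2:**
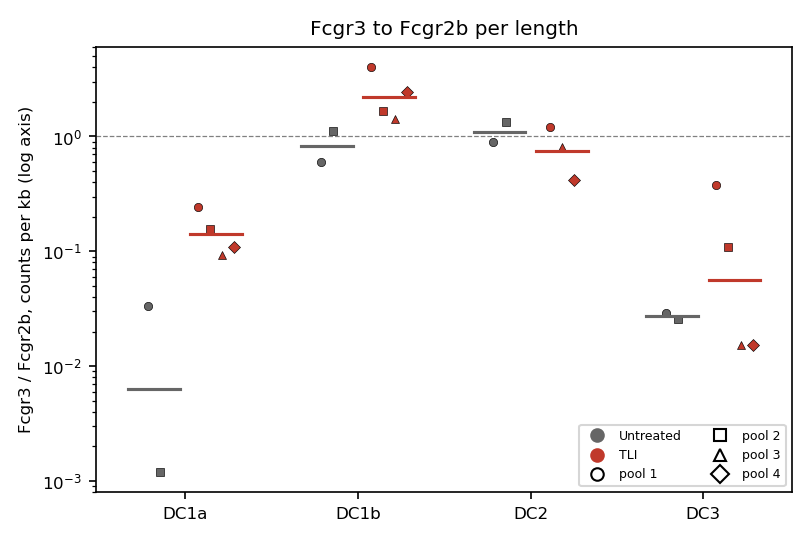
Ratio of Fcgr3 to Fcgr2b per length of transcript (log axis, dashed line at 1) in each of the 23 libraries by population, coloured by treatment, with shape for the pool and a line at the geometric mean of the group. The 4 TLI DC1b libraries sit above 1, from 1.42 to 4.01, and all DC1a and DC3 libraries sit at 0.379 or lower.

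In the exact two-sided permutation test over TLI libraries, the log2 ratio differed by 3.97 between DC1b and DC1a (p = 0.0286) and by -5.29 between DC3 and DC1b (p = 0.0286), the smallest p that 4 against 4 libraries allow. This test treated the libraries as independent, although the populations of 1 pool came from the same mice. The exact permutation p was 0.0571 for DC2 against DC1a (2.41), DC2 against DC1b (-1.56) and DC3 against DC2 (-3.73), the smallest for 3 against 4, and 0.371 for DC3 against DC1a (-1.33). Adjusted over the 6 pairs the p-values were 0.0686 for 5 pairs and 0.371 for DC3 against DC1a, and no value under 0.0571 was possible. Without the libraries of low Sirpa the difference was 4.21 for DC1b against DC1a, -5.53 for DC3 against DC1b, 2.34 for DC2 against DC1a, -1.86 for DC2 against DC1b and -3.67 for DC3 against DC2. The exact permutation p was then 0.333 for DC2 against DC1b (2 against 2 libraries) and 0.133 for the other 4 pairs (2 against 4), the smallest these numbers allow. Within batch 1 the DC3 against DC1a difference was 0.06 and within batch 2 it was -2.72, so this pair rested on batch 2. The other 5 differences kept their direction in both batches, from 3.73 to 4.21 for DC1b against DC1a and from -3.67 to -6.92 for DC3 against DC1b.

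The comparison of TLI with untreated mice asked whether treatment moved these receptors within a population, at batch 1 level. By edgeR no member was called in DC1a (0.0102% of all genes called), DC1b (0.413%), DC2 (0.0612%) or DC3 (0.0255%). At an unadjusted p under 0.05 there were 2 members in DC1a, 5 in DC1b, 3 in DC2 and 3 in DC3. The share of all genes at that unadjusted p is not given here. DESeq2 called 2, 3, 2 and 2 members, and 755, 1267, 876 and 719 of all 19597 genes. The median over the members was 1.97 in DC1a, 1.73 in DC1b, 1.21 in DC2 and 1.16 in DC3, beside 0.15, 0.09, 0.02 and -0.05 over all genes. Fcgr1, at the floor in both DC1a groups, is among the 7 in the DC1a median with a fitted difference of 4.18. These medians come from the fit with 1 batch term shared by all populations. In the batch 1 libraries alone, the DC1a differences were 4.11 for Fcgr3, 1.81 for Fcgrt and 1.48 for Fcgr4. They were 0.59 for Fcgr2b, 0.37 for Fcrla and -0.77 for Fcer1g, and Fcgr1 had no count there.

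**Figure D3:**
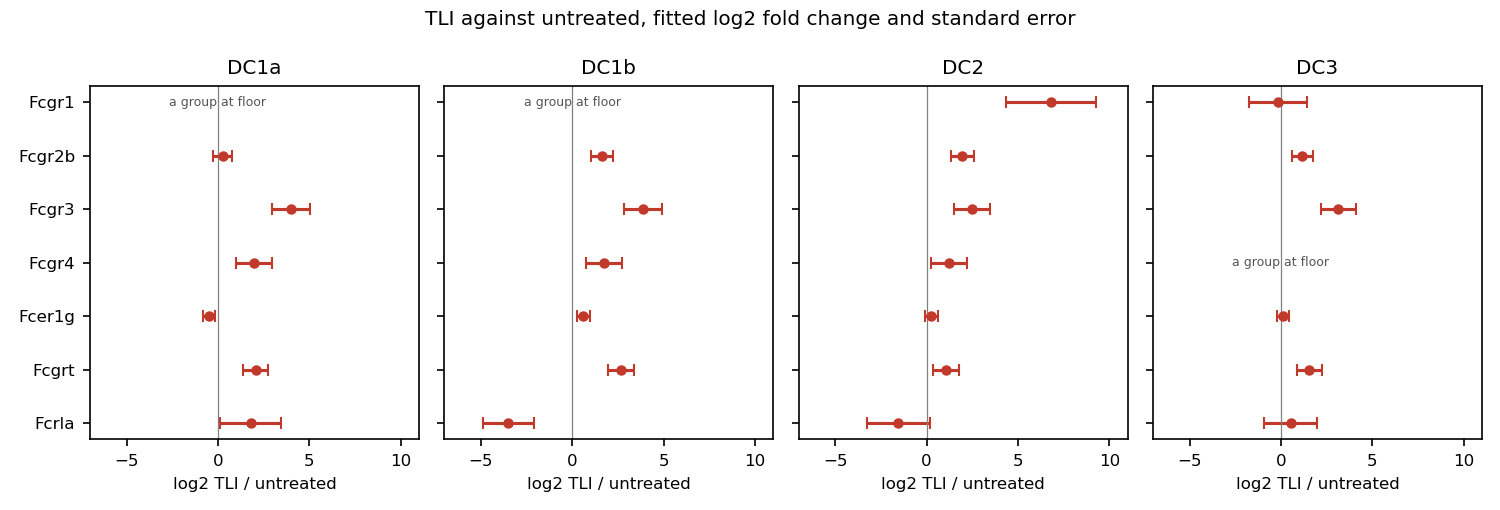
Difference between TLI and untreated libraries on the log2 scale, with bars of 1 SE, for each member in each population from the fit over 23 libraries, where a gene with a group at the floor has no point. All points in DC1b and DC2 lie above 0 except those of Fcrla, at -3.49 and -1.55, and no member passed an adjusted p of 0.05.

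By the fit, Fcgr1 had the widest gap in DC1b and DC2, and Fcgr3 followed it in both. In DC1b Fcgr1, at 0 counts in both untreated DC1b libraries, was at least 275-fold higher after TLI (adjusted p = 0.103) and at least 154-fold without TLI pool 2, and Fcgr3 was 14.6-fold higher (3.87 ± 1.02, adjusted p = 0.117), with no overlap of the groups for either gene. Both were called by DESeq2 (adjusted p = 2.77e-06 and 0.000155), by edgeR without a filter on low counts (adjusted p = 0.0125 and 0.0193) and by limma-voom with the pool as a random block (adjusted p = 7.51e-05 and 0.000402). That last fit changed the tool and the block together, and its estimated correlation within a pool was 0.00267. Without the libraries of low Sirpa neither was called (adjusted p = 0.18 and 0.238). Within batch 1 alone they were not called (adjusted p = 0.224 and 0.232), and the Fcgr3 difference was 3.0. The 14.6-fold of Fcgr3 was larger than any ratio between its libraries, at 52.8 and 78.7 CPM untreated and 251 to 436 CPM after TLI. It came from the fit in which 1 batch term was shared by all populations. In DC2, Fcgr1 was at 1.18 and 0.104 CPM in untreated and 17.4 to 46 CPM in TLI libraries, with no overlap (6.81 ± 2.48, adjusted p = 0.435), and DESeq2 called it (adjusted p = 0.0208). Fcgr3 was 5.64-fold higher in DC2 (adjusted p = 0.473), which the limma-voom fit called (adjusted p = 0.0379). This fold was also larger than any ratio between the libraries, at 120 and 134 CPM untreated and 192 to 437 CPM after TLI. Within batch 1, with TLI pool 1 alone, the difference was 1.84. Fcgr2b was 3.86-fold higher in DC2 without overlap (adjusted p = 0.351) and was called by DESeq2 (adjusted p = 0.0316).

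Differences in the other populations and members were not called by edgeR either. Fcgr4 in DC3 was at least 24.2-fold above untreated libraries that were at the floor (adjusted p = 0.101; DESeq2 adjusted p = 0.000581), and at least 10.7-fold without TLI pool 2, the library at 8.86 CPM. Fcgr3 in DC1a was 16.1-fold higher by the fit (adjusted p = 0.28; DESeq2 adjusted p = 0.000206), yet the groups overlapped, since TLI pool 3 at 0.838 CPM was under untreated pool 1 at 1.01 CPM. Fcgrt in DC1b was 6.25-fold higher with overlapping groups (adjusted p = 0.122), carried by 407 CPM in pool 2. The Fcer1g difference was -0.48 ± 0.33 in DC1a, 0.61 ± 0.33 in DC1b, 0.27 ± 0.35 in DC2 and 0.12 ± 0.33 in DC3. Fcrla in DC1b was 11.2-fold lower after TLI with no overlap (-3.49 ± 1.39, adjusted p = 0.323).

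Whether the TLI difference itself differed between populations was tested as an interaction. No member was called by edgeR (0.0357% of all genes called), 2 had an unadjusted p under 0.05, and DESeq2 called 1, Fcgr1 (adjusted p = 0.0349).

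Markers of other cell types were set beside these values. The neutrophil marker sum over 7 genes was 1308 to 20531 CPM in TLI DC1b and 110 to 2296 CPM in TLI DC2, where Fcgr1 was detected, and 0 to 19.8 CPM in all untreated libraries. Within TLI DC1b the sum did not follow Fcgr1. It was 20531, 1308, 1693 and 8997 CPM in pools 1 to 4, beside 46.3, 90.4, 5.48 and 13.4 CPM of Fcgr1. Within TLI DC2 the sum had the same order as Fcgr1. It was 2296, 210 and 110 CPM in pools 1, 3 and 4, beside 46, 24.3 and 17.4 CPM of Fcgr1. Untreated DC3 pool 2, with 51 counts of Fcgr1, had a neutrophil sum of 0. In the paper, Gr-1, a surface marker of neutrophils, is among the lineage markers of the gating shown for untreated mice. The antibodies that its methods list for sorting the DC subsets do not include Gr-1. The macrophage marker sum over 9 genes was 557 to 2900 CPM in TLI DC1b and 397 to 3595 CPM in TLI DC2, beside 759 to 1531 CPM in untreated DC1b and 997 to 1184 CPM in untreated DC2, with pools 1 and 2 of TLI at the upper end, as for Fcgr1. The monocyte marker sum over 8 genes, which includes Cd300e, was highest in DC1b, at 1822 and 2653 CPM untreated and 1057 to 1357 CPM after TLI, so that it was lower after TLI without overlap while Fcgr3 and Fcgr4 were higher. In DC2 it was 382 and 401 CPM untreated and 870 to 1134 CPM after TLI, and over both treatments it was 297 to 612 CPM in DC3 and 93.1 to 361 CPM in DC1a. Their part in the Fcgr1, Fcgr3 and Fcgr4 differences was not tested.

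**Figure D4:**
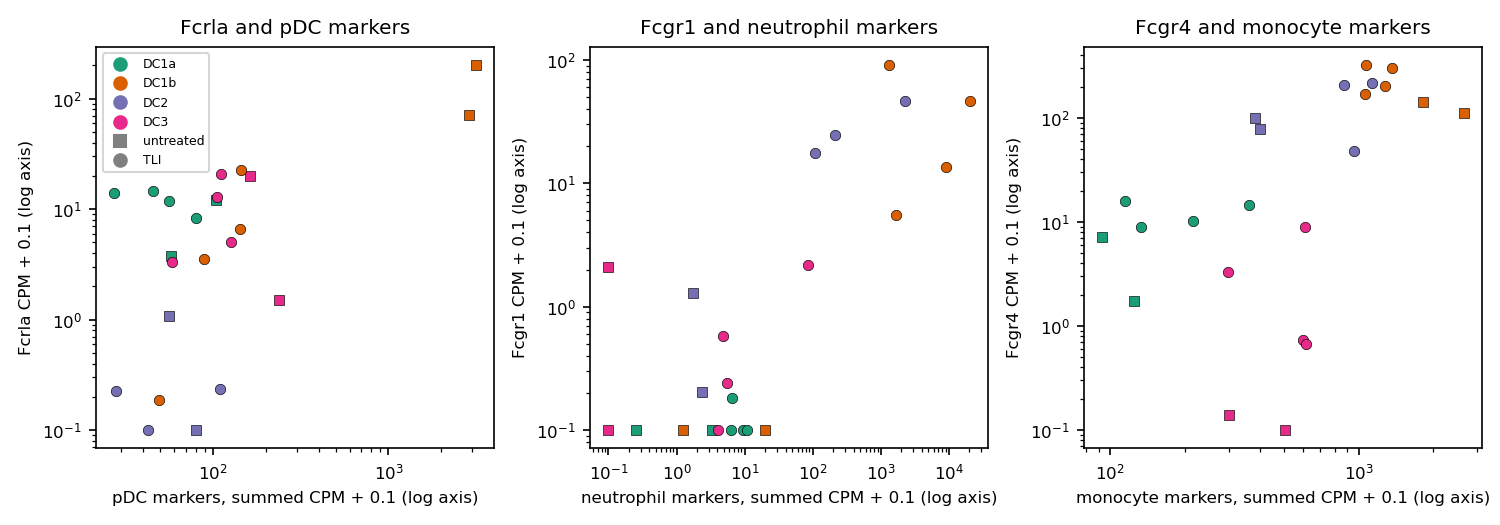
CPM + 0.1 of Fcrla, Fcgr1 and Fcgr4 against the summed CPM + 0.1 of pDC, neutrophil and monocyte markers, both on log axes, with 1 point for each of the 23 libraries, coloured by population (squares untreated, circles TLI). The untreated DC1b libraries stand apart in Fcrla and in the pDC sum, at 2885 and 3154 CPM of markers, and all libraries with 5.48 CPM or more of Fcgr1 have a neutrophil sum of at least 110 CPM.

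The pDC marker sum over 6 genes was, like Fcrla, highest in untreated DC1b, and within TLI DC1b both fell in order from pool 1 to pool 4. Elsewhere their order differed. Untreated DC3 pools 1 and 2 had sums of 237 and 162 CPM beside 1.41 and 19.6 CPM of Fcrla, and TLI DC1a pool 3 had 27.3 beside 13.8 CPM. The sum was 2885 and 3154 CPM in untreated DC1b, 49.2 to 144 CPM in TLI DC1b and at most 237 CPM in every other library. Siglech, a defining pDC gene, was at 1159.5 and 1858 CPM in untreated DC1b and at 0.268 to 31.2 CPM in TLI DC1b. The B cell list was low beside it, with a sum of 110 to 130.04 CPM over 7 genes in untreated DC1b. That B cell sum was 16.5 to 17.9 CPM in untreated DC1a, 7.74 to 17.5 CPM in untreated DC2 and 132 to 310 CPM in untreated DC3. In TLI DC1b it was 68.1 to 97.6 CPM. Of the list only Pax5 and Cr2 were under 1 CPM throughout untreated DC1b, and Pax5 was under 1 CPM in all groups. The NK cell sum over 6 genes was 2820 and 608 CPM in TLI DC3 pools 1 and 2 and 58.2 and 89.4 CPM in pools 3 and 4. In the matching TLI DC1a pools it was 211 and 183 CPM against 43.5 and 6.71 CPM. This split of batch 1 from batch 2 was also that of Fcgr3 in those populations. The T cell sum over 5 genes split likewise, at 294, 193, 2.5 and 25.7 CPM in TLI DC3 and 123, 110, 4.16 and 6.14 CPM in TLI DC1a. Untreated DC3 had NK cell sums of 366 and 185 CPM beside 1.14 and 1.92 CPM of Fcgr3. The part of these markers in the Fcrla and Fcgr3 values was not tested.

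The downstream partners of the receptors were counted in a list of 46 genes, all of them tested, of which 8 were called at least once. Over all genes tested, 1071 of 19597 (5.47%) were called at least once. Cybb, the catalytic subunit of the phagocyte oxidase, and Fgr, a Src-family kinase, were each called in 8 comparisons, higher in DC1b and DC2 than in DC1a and DC3. Cybb was at 312 to 1191 CPM in TLI DC1b and 1.79 to 17.6 CPM in TLI DC1a (6.14 ± 0.64, adjusted p = 2.46e-05). Fgr was at 106 to 182 CPM in TLI DC2 and 1.82 to 15.7 CPM in TLI DC1a (4.52 ± 0.65, adjusted p = 0.000478). The same populations were high and low for Fcgr3.

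Tyrobp, a signalling adaptor related to the Fcer1g chain, was called in 5 comparisons and read 5876 to 8823 CPM in untreated DC1b against 1076 to 1144 CPM in untreated DC1a (2.44 ± 0.40, adjusted p = 0.00532). Fyn, a Src-family kinase, was the 1 partner called between treatments, at 308 to 317 CPM in untreated and 22.4 to 51.3 CPM in TLI DC1b (-2.83 ± 0.44, adjusted p = 0.0087). B2m, which pairs with the Fcgrt product, was lower in TLI DC3 than TLI DC1b (-1.63 ± 0.36, adjusted p = 0.0362). Malt1 and Rac2 were also called at least once.

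Of the kinases and phosphatases next to the receptors, Syk, Lyn, Inpp5d and Ptpn6 were not called in any comparison by edgeR. Syk had an unadjusted p under 0.05 in 6 comparisons and was called by DESeq2 in 2, Ptpn6 had 7 and 3, Inpp5d 2 and 0, and Lyn 0 and 0. Syk, the kinase that binds the activating motif, read 239 CPM in both untreated DC1b libraries and 0.387 to 76.1 CPM in TLI DC1b. Lyn, the kinase that phosphorylates receptor motifs, read 16.9 to 356 CPM across TLI DC1b and DC2. Inpp5d and Ptpn6, phosphatases recruited by inhibitory motifs, read 48 to 193 CPM and 96.9 to 184 CPM in TLI DC1b.

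The remaining Fc and Fc-like receptor genes formed a list of 12, of which 10 were tested and 0 were called by edgeR in any comparison, 6 had an unadjusted p under 0.05 at least once and 5 were called by DESeq2 at least once. Among 7 other receptors that signal with the Fcer1g chain, 5 were tested and 2 were called. Clec4e, a receptor for microbial and damage-derived glycolipids, was at 22.5 to 70.5 CPM in TLI DC1b and 0 to 0.351 CPM in TLI DC3 (-8.44 ± 1.56, adjusted p = 0.00986). Clec4d, its partner, was at 11.9 to 61.9 CPM in TLI DC1b and at 0 in all TLI DC1a libraries (adjusted p = 0.0241).

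As a description of shared pattern, the genes closest to each member were sought by Pearson's r of log2 CPM over the 23 libraries, which share pools and batches. Fcer1g was nearest to Ms4a4c (0.97), S100a4 (0.95) and Ifi27l2a (0.95), and Fcgr3 to Pilrb1 (0.95), Rtp4 (0.94) and Cebpb (0.93). Fcgr4 was nearest to Cd300e (0.92), Hpgd (0.91) and Ear2 (0.89), and Fcgr1 to Fn1 (0.94), Gm8865 (0.88) and Lyz1 (0.87). Fcgr2b was nearest to Gm9025 (0.86), Emb (0.85) and Cd93 (0.84), Fcgrt to Junb (0.85), Gm20425 (0.84) and Itm2b (0.83), and Fcrla to Ccr9 (0.88), Gpr171 (0.82) and Plet1 (0.80). Among the members themselves the closest pair was Fcgr3 and Fcgr4 (0.81), Fcgr1 and Fcgr2b stood at 0.79, and Fcrla was negative against each other member, from -0.54 with Fcgr2b to -0.15 with Fcgrt.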

How the data were processed

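RNA from the sorted populations (1000 cells a sample in the study's methods) was made into libraries with a low-input full-length kit. The authors trimmed with Trimmomatic, aligned with HISAT2, counted with StringTie against Ensembl release 84 and deposited estimated counts per gene as whole numbers, which were used as deposited. The study's methods give paired-end reads of 76 bases and counts of those mapped uniquely to known mRNAs. Strand was handled in a way not given in the sources used here. Of 47729 identifiers, 47224 had a symbol. The 7 members, the gene lists and the marker lists were chosen with earlier results of these data known.

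Counts were fitted in edgeR 4.0.16 (R 4.3.3; TMM, filterByExpr, quasi-likelihood test; 8 groups plus batch; 23 libraries, 14 residual degrees of freedom), with 17 comparisons and Benjamini-Hochberg adjustment over 19597 genes. The fit was also run on simulated data that had no batch or pool effect and changes in DC2 only. That run could not test the differences between TLI and untreated mice. Alternatives used DESeq2 1.42.0 and limma 3.58.1. Totals of 19256447 to 36997890 counts set the precision of low values. Log2 CPM for correlations used a prior count of 2. Genes named were the members, the list genes called in most comparisons with B2m, Syk, Lyn, Tyrobp, Inpp5d and Ptpn6, and the 3 nearest genes of each member; Siglech, Pax5, Sirpa, Cd8a, Malt1 and Rac2 were added after their values were seen. Populations of 1 pool came from the same mice by the labels, which is where the pairing comes from. The residuals of same-pool libraries correlated at -0.16 to 0.07 over 33 pairs. TLI and untreated pools of the same number were different mice. The result of 1 gene of the partner list is not reported here.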

Additional observations from a re-analysis of the deposited data

Results flagged for a closer look

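Fcer1g in TLI DC3 pool 2, at 433 CPM, stood far from the other 3 TLI DC3 libraries (948 to 1070.1 CPM), with a gap to the nearest of 0.866 of the whole range. It was the 1 such library among 23 sets of 4 values examined in this way, and chance marks about 1 set in 20. Fcer1g was also lower in TLI DC1a and DC1b of pool 2 than in the other pools of those populations, at 54.7 and 1337 CPM. The calls of lower Fcer1g in TLI DC3 than in TLI DC1b and DC2 remained without that library.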

How the results depend on the processing

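No difference that was called in any fit changed direction. Of 28 member calls, 15 held under all alternatives run for them and 13 were lost in at least 1. Without a batch term the members called fell to 1 of 7 in untreated DC1b vs DC1a, 0 in DC3 vs DC1a, 1 in DC3 vs DC1b and 1 in DC3 vs DC2, and fits within untreated libraries alone gave the same 4 counts. In TLI mice the fit without a batch term also ended the calls of Fcer1g in DC3 vs DC1b and Fcgr2b in DC3 vs DC2, and the latter was lost with RLE size factors and in TLI libraries alone. DESeq2 called 4 members in untreated DC2 vs DC1a, 2 in untreated DC3 vs DC1a, 1 in DC2 vs DC1b of either treatment, 3 in TLI DC3 vs DC1a, 4 in TLI DC3 vs DC1b, 6 in TLI DC3 vs DC2, 2 in DC1a, 3 in DC1b, 2 in DC2 and 2 in DC3 between TLI and untreated, and 1 for the interaction. It called more of all genes than edgeR in each of the 17 comparisons, from 2450 against 666 in TLI DC2 vs DC1a to 755 against 2 between treatments in DC1a. With no filter on low counts there were 2 members in untreated DC3 vs DC1a, 1 in untreated DC2 vs DC1b and, between treatments, 1 in DC1a, 2 in DC1b and 1 in DC3. RLE size factors gave 2 in untreated DC3 vs DC1a. The replicate block (pool of mice; between treatments a random block in limma-voom, which changes the tool too) gave 1 in untreated DC3 vs DC1b and, between treatments, 2 in DC1b and 1 in DC2, and it changed no member call other than those named with it above. Leaving out the 3 libraries of low Sirpa, a choice made after seeing the data, gave 2 in untreated DC3 vs DC1a and 2 in TLI DC1b vs DC1a. Leaving out single libraries gave 1 to 3 members in untreated DC1b vs DC1a, 2 to 3 in DC2 vs DC1a, 0 to 2 in DC3 vs DC1a, 0 to 2 in DC3 vs DC1b and 1 to 3 in DC3 vs DC2, and 4 to 5, 4 to 6 and 3 to 4 in TLI DC1b vs DC1a, DC2 vs DC1a and DC3 vs DC2. The share of all genes called under the settings other than DESeq2 is not given here. The cause of these changes in member calls was not tested. Untreated groups of 2 libraries limit every comparison with them, and a lone library left in such a group is assumed to vary like the others.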
